A study of Mus musculus with 13 samples.

Results

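The genes described here encode the proteins that store neurotransmitter in synaptic vesicles, hold the vesicles at the presynaptic membrane and fuse them with it when calcium enters. They were chosen as a list of 38 named genes, with earlier results of these data known. Each was read from the probe set that the platform annotation gives to that gene alone. Where there were several, the one with the highest mean over all 13 arrays was taken. Of the 38 genes, 37 had such a probe set and are described, out of 19938 genes measured in the same way. Vamp2, the main vesicle SNARE protein of the forebrain, was left out because its only probe set is annotated to Ubr3 as well. Values are log2 intensities, so a difference of 1 is a doubling. The level of 1 probe set cannot be set against that of another, and all comparisons below are of the same gene between mice.

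Hippocampi of 13 C57BL/6J mice were profiled whole, with 1 array per mouse. In experiment 2, 3 Kmt2d+/βGeo and 3 wild-type mice had received 3 injections of saline a day, as vehicle controls of an experiment that is not part of these data. In experiment 1, 3 Kmt2d+/βGeo and 4 wild-type mice had received no injections. All 4 groups were 1 to 2 months old and ate standard chow at will, and the mice were female by label, apart from wild-type replicate 3 of experiment 1 with a sex of unknown. The heterozygous mice carry 1 Kmt2d allele with a βGeo cassette, a reporter used in gene traps, in every cell, and are a model of Kabuki syndrome, a developmental disorder with intellectual disability. Injections, array run and processing cannot be told apart between the experiments.

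A presynaptic terminal releases transmitter by a fixed sequence of steps. Vesicular transporters load the vesicle, synapsins hold a reserve of vesicles, Rab3 proteins and the RIM and Munc13 proteins of the active zone dock and prime them, and the SNARE proteins on the vesicle and on the plasma membrane zip together to drive fusion. Synaptotagmins sense calcium and complexins set how readily the primed SNARE complex fires. In the hippocampus this machinery serves the glutamate synapses of the granule cells and pyramidal cells and the inhibitory synapses of the interneurons. Kmt2d encodes a histone methyltransferase that acts mainly at enhancers. RNA from whole tissue does not separate fewer cells of a type from less RNA per cell.

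Arrays correlated at 0.985 to 0.994 within experiment 2, at 0.991 to 0.998 within experiment 1 and at 0.936 to 0.958 between the experiments. Of the 2 Kmt2d probe sets, 1 was lower in Kmt2d+/βGeo mice by 0.53 ± 0.08 (standard error, SE; limma adjusted p over all probe sets = 0.427) and the other differed by 0.07 ± 0.07. The sources used here do not place them relative to the cassette, and they check the genotype labels only in part. Wild-type replicate 2 of experiment 1 stood apart: its mean over 10 striatum markers was 10.86, against 8.21 to 8.50 on the other 12 arrays. It had the lowest value of its group for 22 of the 37 vesicle genes. Kmt2d+/βGeo replicate 3 of experiment 2 had the lowest value of its group for 20 of them. The mean of 12 pan-neuronal markers was between 11.04 and 11.30 on all arrays, and that of 12 dentate granule cell markers between 8.54 and 9.60. Single pan-neuronal markers were not constant between the experiments, and their shifts offset each other in the mean. At a limma adjusted p under 0.05, 6 of the 12 were higher in experiment 2 and 5 lower, with differences from -1.13 to 1.46. Arrays that share an exact value in a group, as RMA can give, concerned 1 to 4 vesicle genes per group, and there the SD understates the spread.

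The first comparison asked whether the genotype changes these genes in both experiments. No vesicle release gene passed the threshold of an adjusted p of 0.05, but 2 genes separated the genotypes completely in both experiments. Sv2c, a vesicle glycoprotein known mainly from the basal ganglia, was lower in Kmt2d+/βGeo mice, and Slc17a7, which encodes VGLUT1, the glutamate transporter of most hippocampal excitatory terminals, was higher. With limma, 0 of the 37 genes and 0 of all 19938 genes (0%) were called, while 3 vesicle genes (Sv2c, Slc17a7 and Rab3b) had an unadjusted p under 0.05, against 5.25% of all genes. The differences were small: 20 of the 37 were above 0 and 17 below, with a median of 0.02, against 0.002 over all genes.

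Sv2c was at 7.03, 7.67 and 7.62 in Kmt2d+/βGeo mice and at 8.09, 7.74 and 7.91 in wild-type mice of experiment 2. In experiment 1 it was at 8.63, 8.59 and 8.52 in Kmt2d+/βGeo mice and at 8.90, 9.73, 8.81 and 8.73 in wild-type mice. In each experiment the highest heterozygous value thus lay below the lowest wild-type value, with 1 wild-type mouse far above the rest in experiment 1 and 1 heterozygous mouse far below the rest in experiment 2. The difference over both experiments was -0.47 ± 0.14, a 1.38-fold lower level (limma adjusted p = 0.795, unadjusted p = 0.00529, rank 121 of 19938 genes; exact two-sided permutation within experiments, p = 0.00571). It was -0.47 ± 0.22 in experiment 2 and -0.46 ± 0.20 in experiment 1. Without wild-type replicate 2 of experiment 1, the array with the high striatum markers, it was -0.35 over both experiments and -0.23 in experiment 1, and without Kmt2d+/βGeo replicate 1 of experiment 2 it was -0.27 in experiment 2. Among the alternatives tried the value over both experiments stayed between -0.52 and -0.35.

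A list of 9 markers of the septum, a tissue that borders the hippocampus, and of cholinergic neurons had all 9 genes below 0 over both experiments. The order of the mice within a group was the same for the list mean and Sv2c only in wild-type mice of experiment 1. The mean of the list was 6.94, 6.88 and 6.69 in Kmt2d+/βGeo mice and 7.02, 7.23 and 7.13 in wild-type mice of experiment 2. It was 6.95, 7.0 and 6.96 in Kmt2d+/βGeo mice and 7.48, 7.77, 7.47 and 7.22 in wild-type mice of experiment 1. The genotypes of this list did not overlap in either experiment, as for Sv2c. The list was chosen with earlier results of these data known, so its separation is not an independent result. Choline acetyltransferase, Chat, its defining cholinergic gene, was at 5.71 to 5.93 in Kmt2d+/βGeo mice and 5.93 to 5.99 in wild-type mice of experiment 2, and at 5.48 to 5.71 and 5.58 to 6.39 in those of experiment 1. The part of septal or striatal tissue in the Sv2c difference was not tested.

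Slc17a7 was at 12.05, 12.09 and 12.05 in Kmt2d+/βGeo mice and at 11.95, 11.87 and 11.93 in wild-type mice of experiment 2. In experiment 1 it was at 12.64, 12.61 and 12.72 in Kmt2d+/βGeo mice and at 12.49, 12.31, 12.51 and 12.53 in wild-type mice. All heterozygous mice were above all wild-type mice of their experiment, and the mice of a group lay close together. The difference was 0.17 ± 0.05 over both experiments, a 1.13-fold higher level (limma adjusted p = 0.795, unadjusted p = 0.00555, rank 130; exact permutation p = 0.00143, the smallest the 700 regroupings allow). It was 0.15 ± 0.08 in experiment 2 and 0.19 ± 0.08 in experiment 1, and it was 0.15 over both experiments without wild-type replicate 2 of experiment 1. The permutation p values of Slc17a7 and Sv2c were not adjusted over the 37 genes. Complete separation in both experiments by itself makes such a p small, so they add nothing to that separation. The residual SD of Slc17a7 was at percentile 3.62 of all genes. Markers of dentate granule cells, which use VGLUT1, also separated the genotypes in experiment 1, at 9.60, 9.53 and 9.55 in Kmt2d+/βGeo mice and 9.24, 8.97, 9.43 and 9.41 in wild-type mice. In experiment 2 that list overlapped, at 8.63, 8.78 and 8.74 in Kmt2d+/βGeo mice and 8.83, 8.54 and 8.83 in wild-type mice, while Slc17a7 did not. Complete separation in the same direction in both experiments was found for these 2 of 37 vesicle genes (5.41%), against 64 of all genes (0.321%). The vesicle genes were chosen with earlier results of these data known, so these shares are a description and not an independent test.

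**Figure D1:**
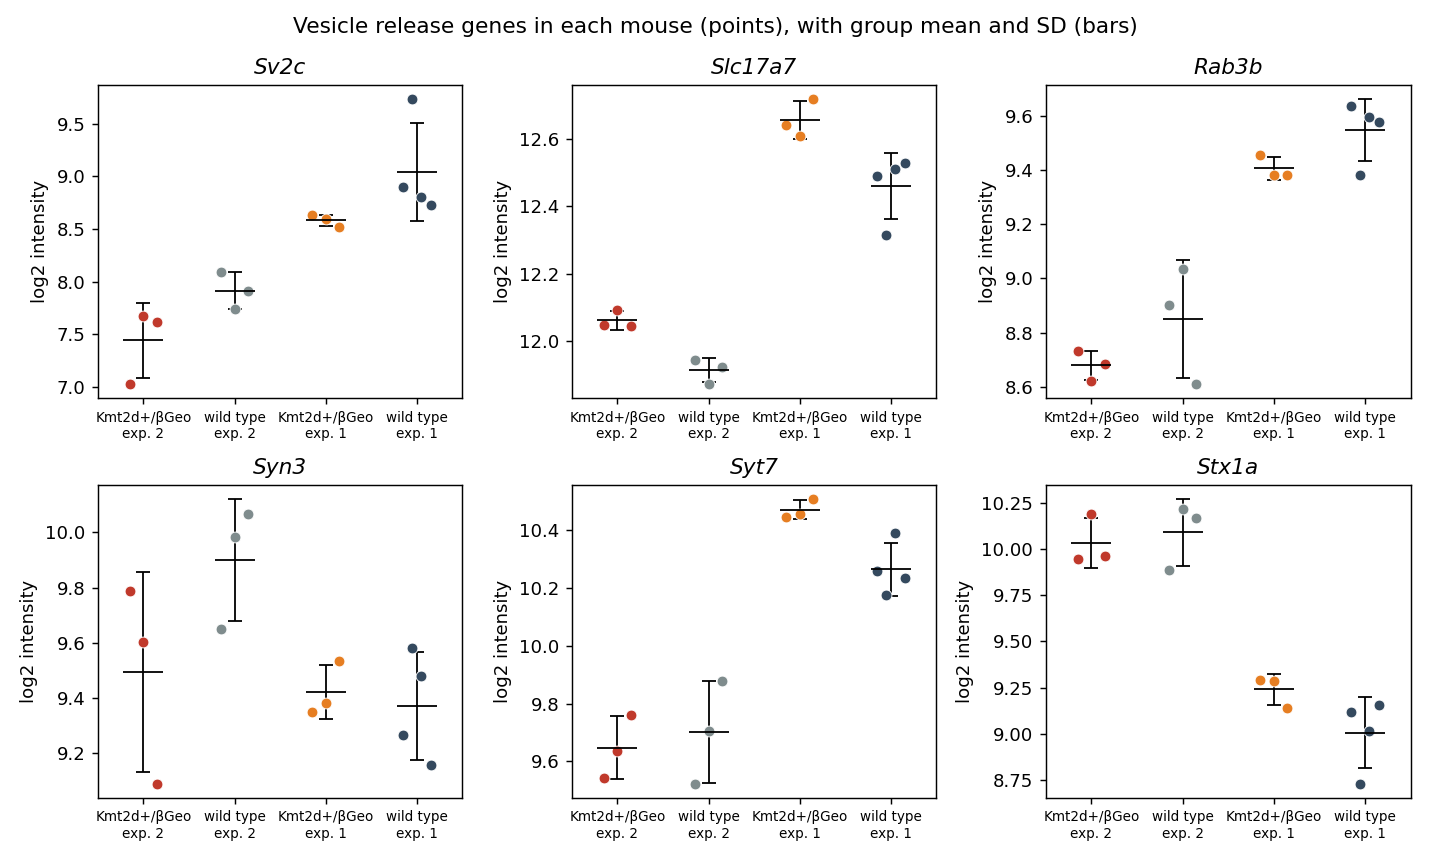
Log2 intensity of 6 vesicle release genes in each of 13 mice (points), with group mean and SD (bars), by genotype and experiment (exp.). Sv2c is lower and Slc17a7 higher in all Kmt2d+/βGeo mice than in all wild-type mice of the same experiment, whereas Rab3b, Syn3 and Stx1a overlap in both experiments and the genotypes of Syt7 overlap in experiment 2 and not in experiment 1.

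The promoters of the 2 genes are shown because these genes separated the genotypes in both experiments. Each is the window of 250 bases upstream of the annotated transcription start, from RefSeq on GRCm38.p6, read 5′ to 3′ along the gene's strand, with every CG dinucleotide, the site of DNA methylation in mammals, in capitals. The window of Sv2c is chr13:96132578-96132827 on the minus strand and that of Slc17a7 is chr7:45163671-45163920 on the plus strand.
Sv2c: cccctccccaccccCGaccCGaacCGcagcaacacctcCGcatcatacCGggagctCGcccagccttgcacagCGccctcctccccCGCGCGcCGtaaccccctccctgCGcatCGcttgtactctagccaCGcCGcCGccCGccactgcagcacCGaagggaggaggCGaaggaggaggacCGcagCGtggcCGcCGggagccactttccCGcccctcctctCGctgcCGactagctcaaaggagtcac
Slc17a7: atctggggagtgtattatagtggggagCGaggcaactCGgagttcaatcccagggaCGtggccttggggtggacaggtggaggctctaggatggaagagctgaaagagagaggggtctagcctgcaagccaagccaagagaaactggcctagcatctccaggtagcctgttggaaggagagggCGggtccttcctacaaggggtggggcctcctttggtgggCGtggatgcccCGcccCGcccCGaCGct
The Sv2c window held 26 CG dinucleotides and the Slc17a7 window 9. Over the 39 windows of the 28 vesicle genes with an entry, the median was 9 CG dinucleotides and the median GC content 60.4%, against 6 and 52.4% over all 32851 windows. The ratio of observed to expected CG exceeded 0.6 in 12 of the 39 windows (30.8%) and in 33.95% of all windows. These are descriptions of sequence, and no methylation or binding was measured.

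The other SV2 glycoproteins did not follow Sv2c. Sv2a, the vesicle protein that binds the antiepileptic drug levetiracetam, differed by -0.0009 ± 0.06 over both experiments, and Sv2b by 0.02 ± 0.06. Slc17a6, which encodes VGLUT2, the transporter of thalamic and other subcortical terminals, differed by -0.22 ± 0.25, with large spread between mice that is described below. Neither transporter nor SV2 gene was called.

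Among the 14 synaptotagmins, 9 were above 0 and 5 below over both experiments, with a median of 0.05, and 0 had an unadjusted p under 0.05. Syt13, an atypical synaptotagmin, was at 10.11, 10.35 and 10.003 in Kmt2d+/βGeo mice and 10.05, 10.17 and 10.13 in wild-type mice of experiment 2. In experiment 1 it was at 10.85, 10.79 and 10.92 in Kmt2d+/βGeo mice and 10.63, 10.53, 10.76 and 10.66 in wild-type mice. The genotypes overlapped in experiment 2 and separated in experiment 1, and the difference was 0.13 ± 0.07 over both (limma adjusted p = 0.934; exact permutation p = 0.0686). Syt16 differed by 0.14 ± 0.07 (exact permutation p = 0.0814) and Syt9, a calcium sensor of fast release, by -0.17 ± 0.10 (exact permutation p = 0.193). Syt9 was at -0.26 without Kmt2d+/βGeo replicate 2 and at -0.093 without Kmt2d+/βGeo replicate 3 of experiment 1. Syt1, the main calcium sensor of fast release in the forebrain, differed by 0.06 ± 0.05, with all mice of experiment 1 between 13.14 and 13.26. Of the others, Syt2, a calcium sensor best known from fast hindbrain synapses, differed by -0.08 ± 0.11, Syt5 by -0.02 ± 0.05, Syt11, which does not bind calcium, by 0.06 ± 0.06 and Syt12 by 0.04 ± 0.11. Syt1 and Snap25 had among the smallest residual SDs of all genes, at percentiles 1.14 and 1.54.

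Of the vesicle membrane and scaffold proteins, Syn1, the synapsin that tethers vesicles to one another and to actin, differed by -0.02 ± 0.09, Syn2 by 0.03 ± 0.07 and Syn3 by -0.16 ± 0.12. Synaptophysin, Syp, one of the most abundant proteins of the vesicle membrane, differed by 0.02 ± 0.08. The signs of Syn1 and Syp depended on the setting. Synpr, synaptoporin, its relative that is known from hippocampal mossy fibres, differed by 0.18 ± 0.12 (limma adjusted p = 0.934; exact permutation p = 0.216). Its values were 8.01, 8.22 and 8.90 in Kmt2d+/βGeo mice and 8.47, 8.25 and 8.17 in wild-type mice of experiment 2, and 10.05, 9.85 and 9.89 in Kmt2d+/βGeo mice and 9.61, 9.49, 9.71 and 9.81 in wild-type mice of experiment 1. The genotypes overlapped in experiment 2, with Kmt2d+/βGeo replicate 3 highest, and did not overlap in experiment 1. Leaving out that mouse gave 0.087 over both experiments, and leaving out Kmt2d+/βGeo replicate 1 of experiment 2 gave 0.27.

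The SNARE proteins that were measured, and the complexins that bind them, showed no called difference. Snap25, a plasma membrane SNARE, differed by -0.02 ± 0.05, its partner Stx1a, syntaxin 1A, by 0.10 ± 0.09 and the vesicle SNARE Vamp1 by 0.07 ± 0.07. Cplx1, Cplx2 and Cplx3 differed by 0.06 ± 0.06, 0.03 ± 0.07 and -0.08 ± 0.11. For these 6 genes the genotypes overlapped in both experiments.

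Of the docking and priming proteins, Rab3b was lower in Kmt2d+/βGeo mice without passing the test. This member of the Rab3 family of vesicle GTPases was at 8.73, 8.62 and 8.68 in Kmt2d+/βGeo mice and at 8.90, 9.04 and 8.61 in wild-type mice of experiment 2. In experiment 1 it was at 9.46, 9.38 and 9.38 in Kmt2d+/βGeo mice and at 9.64, 9.38, 9.60 and 9.58 in wild-type mice. In each experiment a single wild-type mouse lay at or just below the lowest heterozygous value and the others lay above the heterozygous range. The difference was -0.16 ± 0.07 (limma adjusted p = 0.934, unadjusted p = 0.041; exact permutation p = 0.05). Rab3a and Rab3c differed by -0.02 ± 0.07 and 0.02 ± 0.06. Rims1, the active zone scaffold RIM1, differed by 0.10 ± 0.06 (limma adjusted p = 0.934; exact permutation p = 0.0543) and Rims2 by -0.01 ± 0.07. Unc13a, which encodes the priming factor Munc13-1, differed by -0.001 ± 0.07. Unc13c, its relative best known from the cerebellum, differed by -0.23 ± 0.26, and all 7 of its probe sets were below 0, from -0.42 to -0.18, none of them called. These values rested on wild-type replicate 2 of experiment 1: without it the probe set used here differed by 0.005 ± 0.15, and the 7 ran between -0.14 and 0.05, with 5 below 0 and 2 above.

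**Figure D2:**
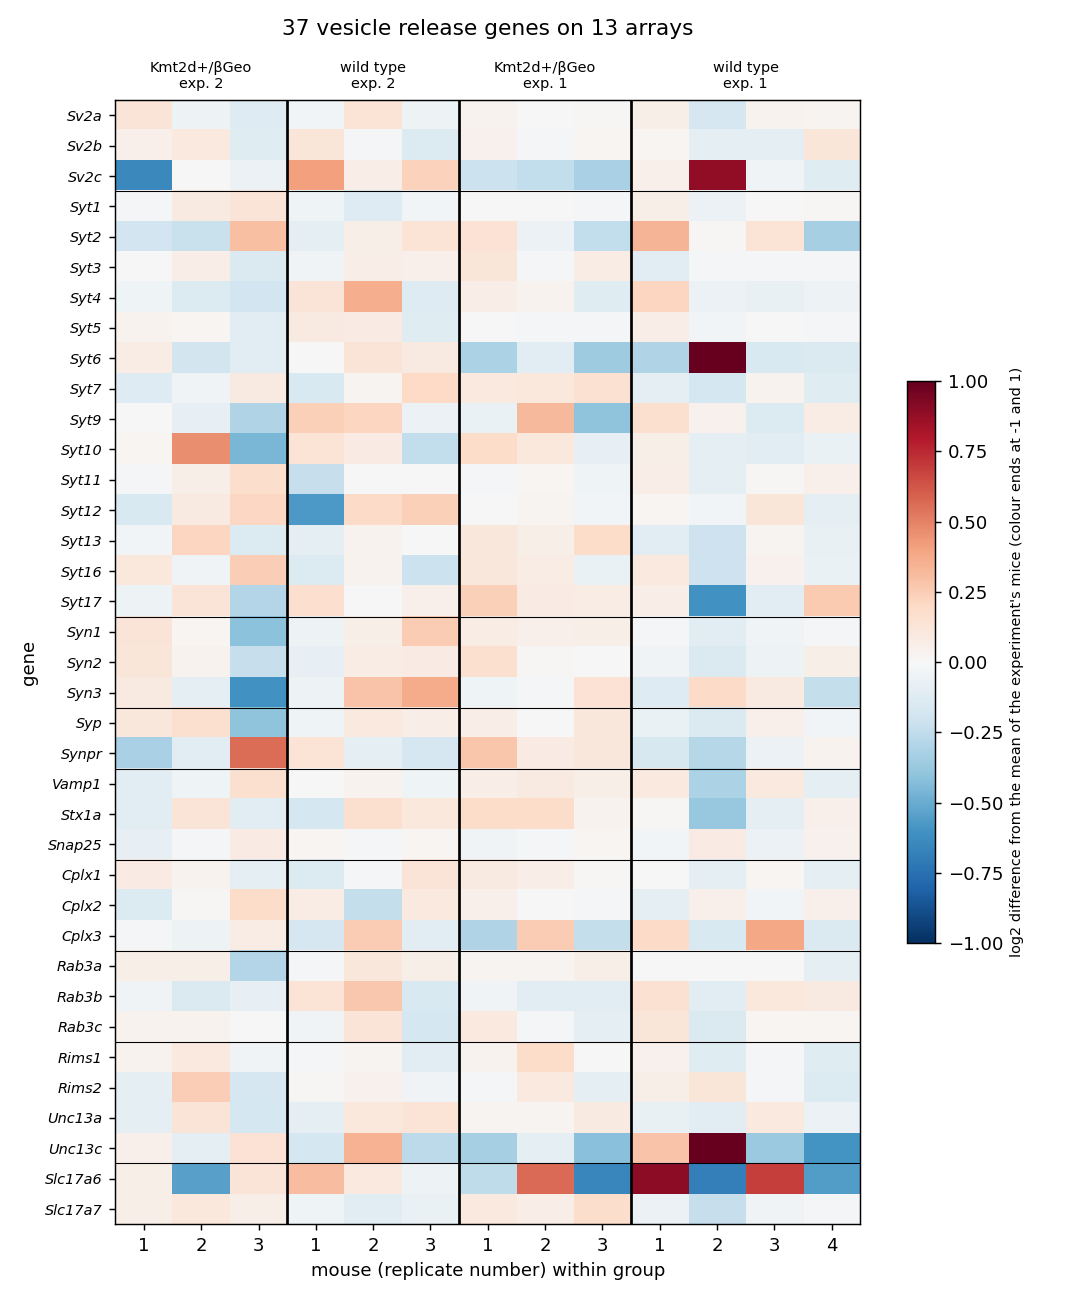
Log2 intensity of the 37 vesicle release genes (rows, grouped by role) in 13 mice (columns), as the difference from the mean of the mice of the same experiment. Most cells are pale, and the darkest belong to wild-type replicate 2 of experiment 1 (Unc13c, Syt6, Sv2c) and to Slc17a6, whose high and low mice occur in both genotypes.

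Within experiment 2, whose mice had saline injections, 0 of the 37 genes were called, and 0 of all genes (0%). Syn3, the synapsin found mainly early in development and in new neurons, had the lowest p. It was at 9.79, 9.60 and 9.09 in Kmt2d+/βGeo mice and at 9.65, 9.98 and 10.07 in wild-type mice. The ranges overlapped, and the low heterozygous value came from replicate 3. The difference was -0.41 ± 0.16 (limma adjusted p = 0.421, unadjusted p = 0.0241; exact permutation p = 0.2, where 3 against 3 cannot go below 0.1), and -0.20 without that mouse. The same mouse had the lowest value of all mice of its experiment for Syn1 (10.85), Syp (11.30) and Syt10 (7.75) and the highest for Synpr (8.90). Syt4, a synaptotagmin of neuropeptide vesicles, differed by -0.25 ± 0.12 and Syt16 by 0.21 ± 0.11 (limma adjusted p = 0.492 and 0.507). Without wild-type replicate 2 the Syt4 difference was -0.13, and without Kmt2d+/βGeo replicate 3 that of Syt16 was 0.14. Sv2c and Syn3 were the 2 genes with an unadjusted p under 0.05, against 10.2% of all genes. The ranges of the genotypes were apart for 3 of the 37 genes (8.11%), against 9.48% of all genes. Syt1 and Slc17a7 lay above (all genes 4.32%) and Sv2c below (all genes 5.17%). Without Kmt2d+/βGeo replicate 3 the number was 6, with Syp and Rims1 added above and Syt2 below, against 17% of all genes.

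Within experiment 1, whose mice had no injections, 0 of the 37 genes were called, and 4 of all genes (0.0201%). An unadjusted p under 0.05 was found for 4 vesicle genes, namely Slc17a7, Syt13, Sv2c and Syt7, against 3.5% of all genes. Syt7, the calcium sensor of slow and asynchronous release, was at 10.45, 10.46 and 10.51 in Kmt2d+/βGeo mice and at 10.26, 10.17, 10.39 and 10.23 in wild-type mice. All heterozygous mice lay above all wild-type mice, by 0.21 ± 0.09 (limma adjusted p = 1, unadjusted p = 0.0417). Syt13 differed by 0.21 ± 0.09 as well. Stx1a was at 9.29, 9.29 and 9.14 in Kmt2d+/βGeo mice and 9.12, 8.73, 9.02 and 9.16 in wild-type mice. Its ranges overlapped by a small margin, and the difference was 0.23 ± 0.11 (limma adjusted p = 1), or 0.14 without wild-type replicate 2.

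In experiment 1 the ranges of the genotypes were apart for 8 of the 37 genes (21.6%), against 7.22% of all genes. Syt3, Syt7, Syt13, Syn1, Synpr, Rab3a and Slc17a7 were above in Kmt2d+/βGeo mice (all genes 4.47%) and Sv2c below (all genes 2.75%). For Syt3 the lowest heterozygous value was 9.125 and the highest wild-type value 9.123. For Rab3a these values were 10.91 and 10.87. In both genes several wild-type mice shared that highest value exactly, so the margins were narrow. Wild-type replicate 2 had the lowest value of its group for 22 vesicle genes. Without it the number of genes apart was 9, with Rab3b added below, against 15.1% of all genes. Several marker lists also separated the genotypes of this experiment. The ependymal list of 10 genes was at 6.54 to 6.79 in Kmt2d+/βGeo mice and 6.98 to 7.26 in wild-type mice, and the myelin list of 11 genes at 10.15 to 10.52 and 10.60 to 10.81. The choroid plexus list of 10 genes overlapped, at 8.33 to 8.68 in Kmt2d+/βGeo mice and at 8.39 to 9.92 in wild-type mice, where the lowest was replicate 2. The ependymal and myelin lists were thus lower in Kmt2d+/βGeo mice, as was the septum and cholinergic list given above. The dentate list given above was higher. The part of these lists in the separation of these 8 genes was not tested.

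The difference of the genotype effects between the experiments was 0 of 37 called, and 0 of all genes (0%), with 0 of the 37 and 6.53% of all genes at an unadjusted p under 0.05. Syn3 came closest, at -0.46 ± 0.22 (limma adjusted p = 0.763, unadjusted p = 0.057), followed by Syt7 at -0.26 ± 0.14, Stx1a at -0.29 ± 0.17 and Syn1 at -0.28 ± 0.16 (limma adjusted p = 0.769, 0.77 and 0.77). Without Kmt2d+/βGeo replicate 3 of experiment 2 the value was -0.26 for Syn3 and -0.12 for Syn1. It was -0.17 for Syt7 without wild-type replicate 3 of experiment 2 and -0.20 for Stx1a without wild-type replicate 2 of experiment 1. For these 4 genes the heterozygous mice were lower than wild-type mice on average in experiment 2 and higher in experiment 1. The 2 effects had the same sign for 20 of the 37 genes (54.1%), against 48.2% of all genes.

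**Figure D3:**
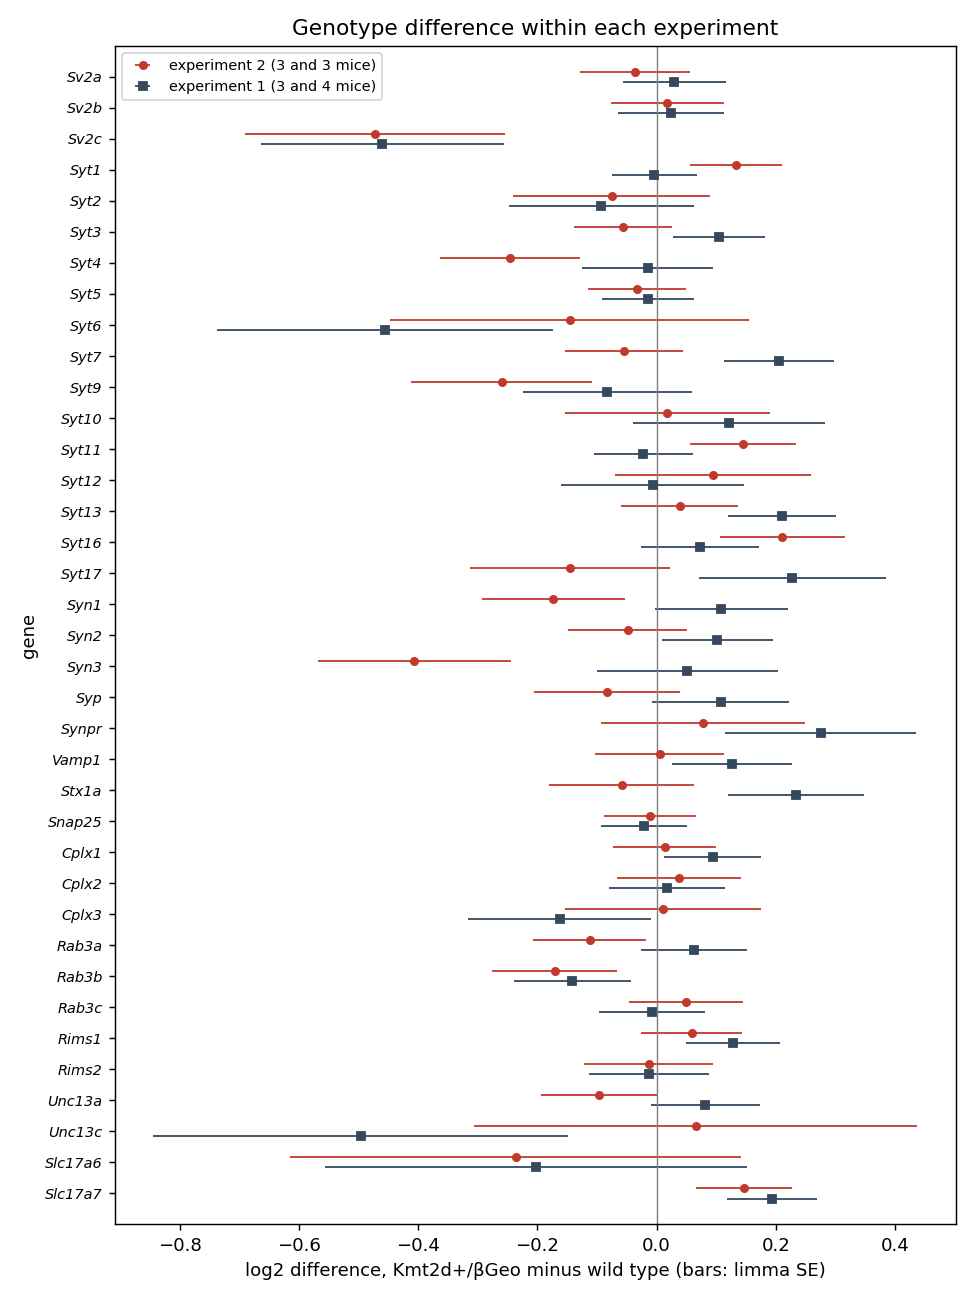
Log2 difference, Kmt2d+/βGeo minus wild type, of each of the 37 genes in experiment 2 (circles) and experiment 1 (squares), with limma SE as bars. Sv2c lies near -0.47 and Slc17a7 near 0.17 in both experiments, while Syn3, Syt7 and Stx1a lie on opposite sides of 0, differences that did not pass the test.

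All 3 synapsins were below 0 in experiment 2 and above 0 in experiment 1, none of them called. In experiment 2 Kmt2d+/βGeo replicate 3 had the lowest value of all mice for Syn1, Syn2 and Syn3, at 10.85, 11.80 and 9.09. For Syn2 the other heterozygous mice were at 12.15 and 12.06, against 11.95 to 12.11 in wild-type mice. The promoter of Syn1 is shown because it is known in the rat and human gene for a binding element of the neuronal repressor REST. The window of 250 bases upstream of the annotated start, chrX:20920919-20921168 on the minus strand (RefSeq, GRCm38.p6), was searched on both strands for 4 sequences: TGACGTCA, the cyclic AMP response element; TTCAGCACC and GGACAGCGC, from the left and right parts of the REST element; and CACGTG, an E-box. None of the 4 overlaps another. The capitals mark the 2 matches, the left REST part at bases -232 to -224 and the cyclic AMP response element at bases -159 to -152 from the start.
Syn1: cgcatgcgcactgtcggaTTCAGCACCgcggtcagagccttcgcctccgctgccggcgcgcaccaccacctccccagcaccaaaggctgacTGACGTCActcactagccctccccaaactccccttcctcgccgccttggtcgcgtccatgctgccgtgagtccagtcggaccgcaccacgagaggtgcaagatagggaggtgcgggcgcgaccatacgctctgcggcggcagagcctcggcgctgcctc
Among the 39 windows of vesicle genes the cyclic AMP response element occurred in 1 (2.56%, against 1.55% of all windows), the left part in 1 (2.56%, against 0.301%), the right part in 0 (against 0.304%) and the E-box in 4 (10.3%, against 6.02%). A match is a string of letters and not a measured site.

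The second comparison was between the experiments, and the vesicle genes shifted widely. Of the 37 genes, 26 fell in experiment 2 relative to experiment 1 (70.3%, against 35.4% of all genes) and 5 rose (13.5%, against 41.8%). The median difference was -0.57, against 0.07 over all genes. Most vesicle genes have bright probe sets, and bright probe sets as a whole were lower in experiment 2: of all genes with a mean of 10 or more, 67.1% fell, with a median of -0.43, and of the 21 vesicle genes in that range 15 fell (71.4%), with a median of -0.57. Of the dimmer vesicle genes, 0 of 1 fell at a mean of 6 to 7 (all genes 15.0%). It was 3 of 4 at 7 to 8 (37.8%), 4 of 4 at 8 to 9 (55.8%) and 4 of 7 at 9 to 10 (64.2%). In total 77.2% of all genes were called. With quantile normalisation the median was -0.39 for the vesicle genes and -0.05 for all genes, and with each array centred on its median it was -0.81 and -0.17. The share of all calls that were higher was 54.2%, and 41.0% and 28.3% under these scalings.

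Sv2a fell most by p. It was at 10.46, 10.28 and 10.20 in Kmt2d+/βGeo mice and 10.30, 10.47 and 10.28 in wild-type mice of experiment 2, against 11.81, 11.78 and 11.78 in Kmt2d+/βGeo mice and 11.83, 11.61, 11.81 and 11.80 in wild-type mice of experiment 1. No mouse of experiment 2 came within 1 log2 unit of any mouse of experiment 1, and the genotypes overlapped in both. The difference was -1.44 ± 0.06, or 2.72-fold lower in experiment 2 (limma adjusted p = 4.76e-12). Syt10, a synaptotagmin of growth factor secretion in the olfactory bulb of mice, fell by 1.56 ± 0.11 on the log2 scale and Synpr fell by 1.45 ± 0.12. Slc17a6 fell by 1.35 ± 0.25, Sv2c by 1.13 ± 0.14 and Rims2 by 0.89 ± 0.07 (limma adjusted p of 0.000128 or less for all 5). Core genes fell as well: Syt1 by 0.87, Syn1 by 0.85, Snap25 by 0.63, Slc17a7 by 0.57 and Syp by 0.43, each called.

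By role, all 3 SV2 genes fell, and so did 11 of the 14 synaptotagmins, both synaptophysins, both vesicular glutamate transporters and all 4 RIM and Munc13 genes. For Unc13a this held only for the probe set used here, and its other probe sets were higher by 0.88 and 1.76. Among the synaptotagmins Syt4 fell by 0.76 ± 0.08, Syt7 fell by 0.68 ± 0.07, Syt5 fell by 0.66 ± 0.05 and Syt11 fell by 0.59 ± 0.06. Syt12 had the smallest called difference below 0, -0.25 ± 0.11 (limma adjusted p = 0.0456). Of the Rab3 genes 1 of 3 fell, Rab3b with a difference of -0.71 ± 0.07, while Rab3a and Rab3c differed by -0.07 ± 0.07 and -0.05 ± 0.06.

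Stx1a rose most. It was at 9.95, 10.19 and 9.96 in Kmt2d+/βGeo mice and 9.88, 10.22 and 10.17 in wild-type mice of experiment 2, against 9.29, 9.29 and 9.14 in Kmt2d+/βGeo mice and 9.12, 8.73, 9.02 and 9.16 in wild-type mice of experiment 1. All mice of experiment 2 were above all mice of experiment 1, by 0.95 ± 0.09, or 1.93-fold (limma adjusted p = 5.95e-08). Syt17 rose by 0.59 ± 0.12, Cplx3 by 0.42 ± 0.11, Cplx2 by 0.37 ± 0.07 and Syn3 by 0.32 ± 0.12 (limma adjusted p = 0.000341, 0.00262, 0.000135 and 0.0265). With each array centred on its own median, Cplx3, Cplx2 and Syn3 no longer passed. Syn3 also lost the call without any 1 of 5 arrays, at 0.25 to 0.28. The SNARE partners Stx1a and Snap25 thus had opposite signs, and so had the complexins, where Cplx1 fell by 0.32 ± 0.06 on the log2 scale while the rise of Cplx2 and Cplx3 depended on that scaling. Syt3, Syt6, Syn2, Vamp1, Rab3a and Rab3c were not called.

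The sign of a gene could depend on the probe set. Unc13a had 3 probe sets, and the one used here was lower in experiment 2 by 0.53, whereas the others were higher by 0.88 and 1.76, all 3 called. The 7 probe sets of Unc13c were all below 0 and 5 were called lower, or 6 without wild-type replicate 2 of experiment 1. These calls were adjusted over all probe sets. The probe set used here was among the 6 and not among the 5 (limma adjusted p over all probe sets = 0.0687). Over all genes it was called (limma adjusted p = 0.0424). The other 35 genes had 1 probe set each, so no such check was possible for them.

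**Figure D4:**
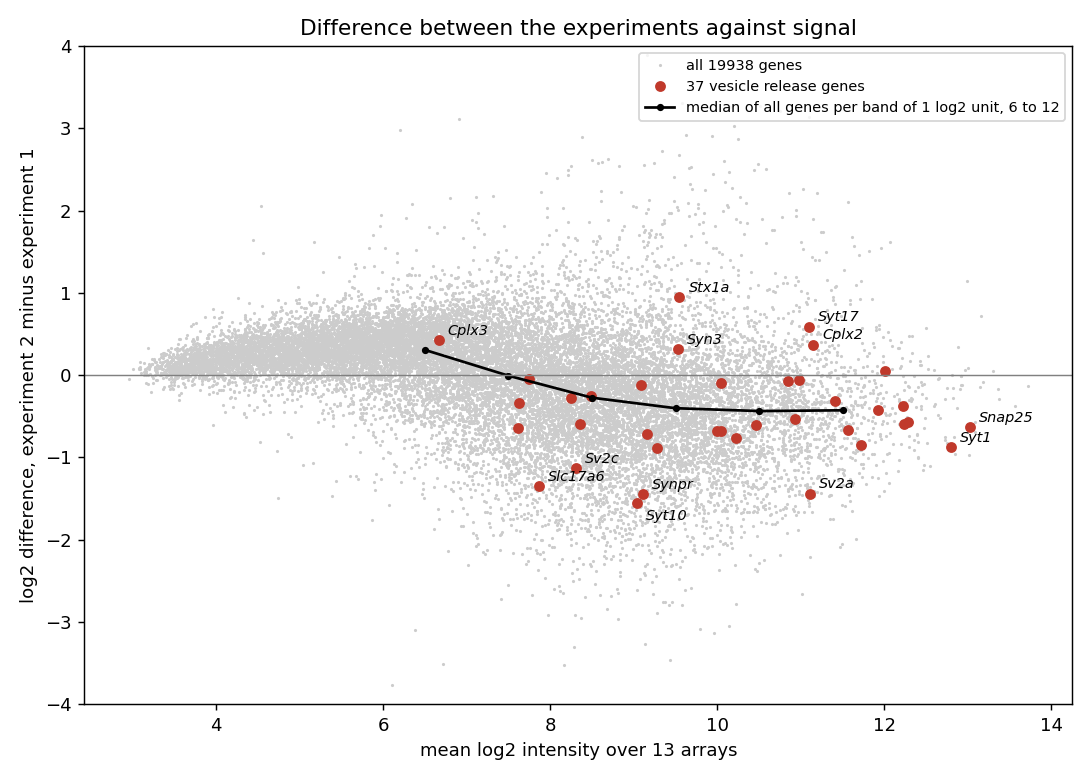
Log2 difference, experiment 2 minus experiment 1, against the mean log2 intensity over 13 arrays, for all 19938 genes (grey), the 37 vesicle release genes (red) and the median of all genes in bands of 1 log2 unit (line). The line falls below 0 for bright genes, and most red points lie near or below it. Stx1a and Syt17 lie above it, and so do others such as Cplx2, Syn3, Vamp1, Rab3a, Rab3c and Syt3. In all, 5 genes lie outside the plotted range.

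The promoters of Sv2a, which had the lowest p, and of Stx1a, which rose most, are shown in the same form, with CG in capitals. The windows are chr3:96180977-96181226 and chr5:135023232-135023481, both on the plus strand (RefSeq, GRCm38.p6).
Sv2a: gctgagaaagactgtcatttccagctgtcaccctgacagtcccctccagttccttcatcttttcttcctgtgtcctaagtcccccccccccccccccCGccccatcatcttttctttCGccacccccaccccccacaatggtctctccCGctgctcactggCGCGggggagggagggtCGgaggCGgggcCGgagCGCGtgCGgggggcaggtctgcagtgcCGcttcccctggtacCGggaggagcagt
Stx1a: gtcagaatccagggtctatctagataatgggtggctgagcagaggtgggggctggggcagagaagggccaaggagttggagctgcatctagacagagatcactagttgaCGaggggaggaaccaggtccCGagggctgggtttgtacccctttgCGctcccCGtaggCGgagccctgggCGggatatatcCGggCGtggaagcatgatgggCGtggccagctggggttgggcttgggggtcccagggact
They held 13 and 9 CG dinucleotides, and none of the 4 sequences searched in the Syn1 window was found in either.

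Single mice stood far apart in a few genes. Wild-type replicate 2 of experiment 1 had Unc13c at 10.18, against a mean of 8.41 in the other mice of its group, and it was the highest of all 13 mice in each of the 7 Unc13c probe sets. The same mouse had Syt6 at 9.16, against 7.43 to 7.84 in all others, and Sv2c at 9.73, and it had the lowest Syt17, at 10.22. Its striatum markers included the dopamine receptor genes Drd1 at 10.84 and Drd2 at 11.43, against 7.33 to 7.77 and 7.11 to 8.18 on the other arrays. The part of striatal tissue in these vesicle genes was not tested. Slc17a6 was at 7.19, 6.59 and 7.26 in Kmt2d+/βGeo mice and 7.44, 7.22 and 7.08 in wild-type mice of experiment 2, and at 8.24, 9.06 and 7.84 in Kmt2d+/βGeo mice and 9.39, 7.81, 9.19 and 7.94 in wild-type mice of experiment 1. In experiment 1 a single heterozygous mouse and 2 wild-type mice were high and the others low, so the spread did not follow the genotype. Of these 3 high mice, Kmt2d+/βGeo replicate 2 and wild-type replicate 1 also had the highest means of the thalamus list, 8.46 and 8.24, against 7.62 to 8.07 on the other arrays. The residual SDs of Slc17a6, Unc13c, Syt6 and Sv2c were at percentiles 99.8, 99.7, 99.5 and 98.4 of all genes.

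**Figure D5:**
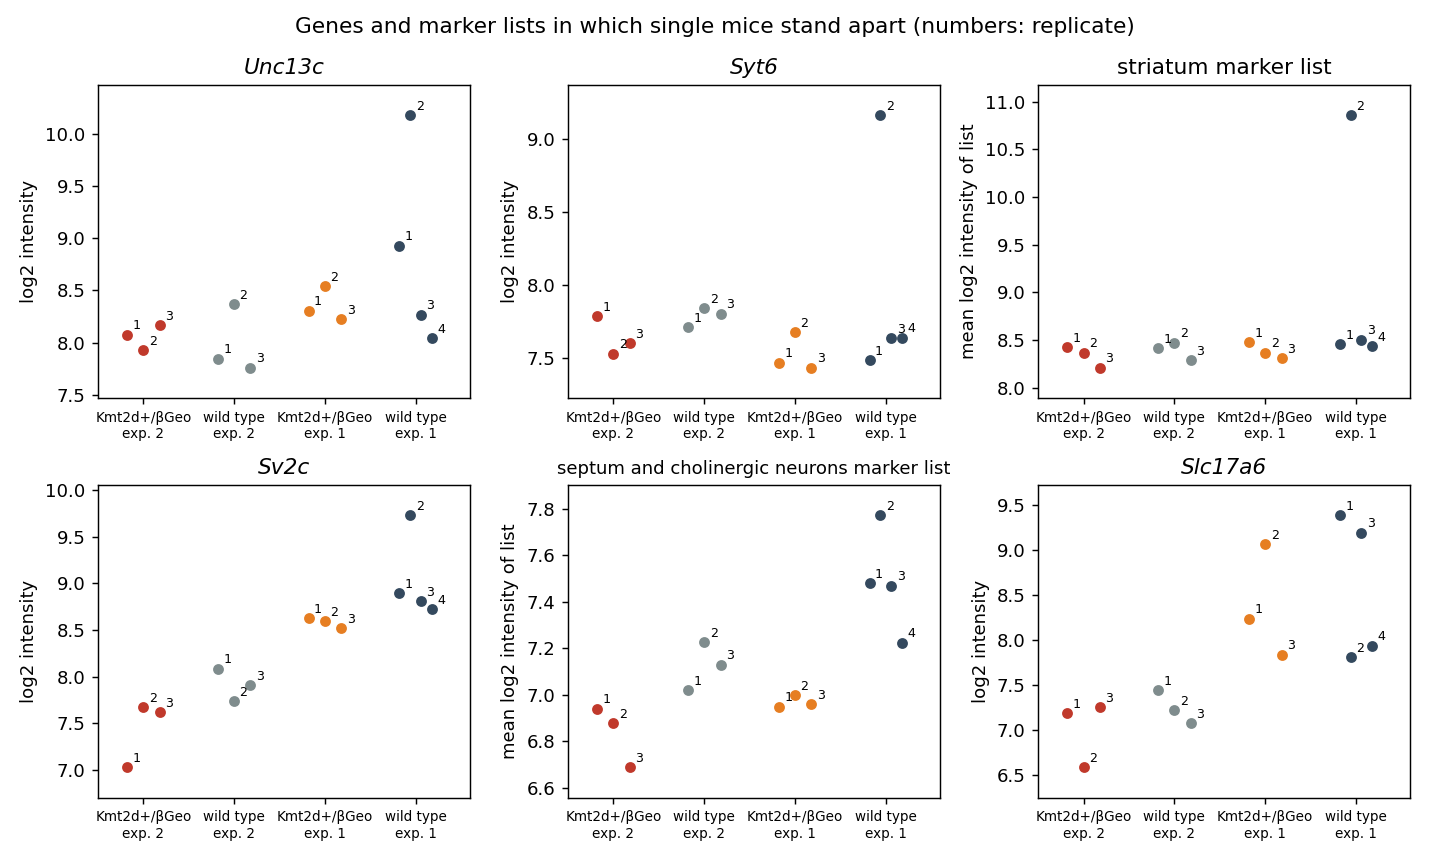
Log2 intensity of Unc13c, Syt6, Sv2c and Slc17a6, and mean log2 intensity of the striatum and the septum and cholinergic marker lists, in each mouse, numbered by replicate within its group. Wild-type replicate 2 of experiment 1 stands apart in 3 of the genes and in the striatum list, and Slc17a6 splits experiment 1 in both genotypes.

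Other genes of the synaptic vesicle and the active zone, a further list of 44, were counted in the same way. Of these, 42 were measured, and 0 were called between the genotypes over both experiments, with 34 above 0, 8 below 0 and a median of 0.05. Of all 19938 genes, 10178 were above 0, with a median of 0.002. The mean of this list did not overlap in experiment 1, at 10.10 to 10.11 in Kmt2d+/βGeo mice and 9.98 to 10.08 in wild-type mice. It overlapped in experiment 2, at 9.48 to 9.54 and 9.44 to 9.52. The lowest p values belonged to Ppfia2, a liprin scaffold of the active zone, at 0.19 ± 0.08 (limma adjusted p = 0.888), and Slc17a8, the vesicular transporter VGLUT3, at 0.21 ± 0.09 (limma adjusted p = 0.913). In experiment 2, Slc17a8 was at 0.35 ± 0.12, Stxbp5l, a relative of tomosyn, at 0.28 ± 0.10 and Rims3 at -0.39 ± 0.16, none of them called. Between the experiments 34 of the 42 fell (81.0%, against 35.4% of all genes) and 5 rose (11.9%, against 41.8%), with a median of -0.59, against 0.07. Of all genes with a mean of 10 or more, 67.1% fell, but the 42 genes were not limited to that range and include dim ones such as Doc2a and Cplx4. Amph, amphiphysin of vesicle recycling, fell by 1.60 ± 0.07 and Napb, which helps take SNARE complexes apart, fell by 1.31 ± 0.05, while Syt8 rose by 0.75 ± 0.07 (limma adjusted p = 7.18e-08 or less for all 3).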

How the data were processed

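Whole-hippocampus total RNA of 13 mice was amplified and biotin-labelled, per the labels' protocols, and hybridised to arrays, 1 mouse each. The deposited values are log2 intensities per probe set that the authors made with RMA in oligo, per the submitters' processing notes; versions, genome build and whether all arrays were normalised together were not found in the sources used here. RMA shrinks differences near background and keeps no count, so depth does not apply and the number of arrays limits precision. The platform annotation gives 1 gene to 21789 probe sets, several to 1621 and none is listed for 12146. Per gene the probe set with the highest mean was kept (19938 genes).

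Differences were fitted with limma 3.58.1 in R 4.3.3 over all 4 groups, with Benjamini-Hochberg adjustment over all genes, a threshold of 0.05 and two-sided tests, and tested on simulated data. Single genes were also tested by exact permutation of genotype within experiments, without adjustment for the number of genes. The genes given in full were those past the threshold, those of lowest unadjusted p (8 over both experiments, 5 in each, 4 for the difference of effects), up to 6 called genes that rose and 6 that fell most between experiments, and a few core genes; up to 4 others came from the list of further vesicle genes. Members and marker lists were chosen with earlier results of these data known. The alternatives were scaling, filters on dim genes, probe set choice, moderation, array weights, a replicate block and left-out arrays.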

Additional observations from a re-analysis of the deposited data

Results flagged for a closer look

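In the group of 4, the wild-type mice of experiment 1, 1 mouse lay far from the others for 5 of the 37 vesicle genes and for 2 of the 16 lists. Of such tests, chance gives about 1 in 20, and 53 were made; groups of 3 could not be tested. Replicate 2 had Syt6 at 9.16 (others 7.48 to 7.64), Sv2a at 11.61 (others 11.80 to 11.83), the striatum list at 10.86 (others 8.43 to 8.50) and the microglia list at 8.75 (others 8.65 to 8.66). Replicate 1 had Syt4 at 10.79 (others 10.50 to 10.53) and Syt3 at 9.03, where the other 3 share the value 9.12. Replicate 4 had Rab3a at 10.79, where the other 3 share 10.87. Shared values make the last 2 stand out more easily.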

How the results depend on the processing

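Of 1084 repeats of 43 vesicle gene results, 1064 kept direction and side of the threshold, 10 lost the call and 10 changed sign. No vesicle gene was called between genotypes under any alternative. The count of all genes called over both experiments (0) was 21 with array weights and 1 without wild-type replicate 2 of experiment 1 and Kmt2d+/βGeo replicate 3 of experiment 2, a pair chosen after seeing the data; leaving out single arrays gave 0 to 2. In experiment 2 (0) it was 2 with quantile normalisation and 0 to 91 with single arrays left out, 91 without Kmt2d+/βGeo replicate 1. In experiment 1 (4) it was 0 with every probe set, 0 with the dimmest 50% left out, 163 with array weights, 2 with quantile normalisation, 1 with a replicate block, 79 without the pair, 2 from that experiment's arrays alone, and 0 to 48 with single arrays left out, 48 without wild-type replicate 2. Between experiments (15385) it was 26086 with every probe set, 8020 with the dimmest 50% left out, and 14931 to 15594; of the vesicle genes 28 to 32 were called, 4 to 6 higher and 24 to 26 lower, and 2 were higher with median centring. Vesicle genes with an exact permutation p under 0.05 (2) were 5 with quantile normalisation, 4 without 3 arrays (the pair and wild-type replicate 3 of experiment 1), 5 without the pair, and 2 to 5. Syn1 over both experiments (-0.02) became 0.049 with array weights, 0.0020 with quantile normalisation, 0.034 without the 3 arrays and 0.043 without the pair, and lay between -0.052 and 0.060 with single arrays left out, above 0 without Kmt2d+/βGeo or wild-type replicate 3 of experiment 2. Syp (0.02) lay between -0.013 and 0.103 with single arrays left out, below 0 without Kmt2d+/βGeo replicates 1 and 2 of experiment 2, Kmt2d+/βGeo replicate 3 and wild-type replicate 2 of experiment 1. Between experiments Syn3 lost its call with median centring (0.07) and the replicate block (0.26), and without Kmt2d+/βGeo replicate 1, wild-type replicate 2 or wild-type replicate 3 of experiment 2 or wild-type replicate 1 or 4 of experiment 1 (0.25 to 0.28, limma adjusted p = 0.0534 to 0.0821), and Cplx2 and Cplx3 with median centring (0.13 and 0.18), Cplx3 also with quantile normalisation (0.14). Replicate numbers did not pair the mice: 1 of 6 same-numbered pairs correlated above 0.1 and 1 was best with its own number. The causes were not tested.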
